A study of Mus musculus with 12 samples.

Results

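The genes described here are 9 genes that mark the hepatocytes around the central vein: Glul, Cyp2e1, Cyp1a2, Oat, Slc1a2, Rhbg, Axin2, Lgr5 and Tbx3. They were chosen by symbol as known pericentral genes. The rule itself uses no value of these libraries, but the choice was made with earlier results of these data known and was not blind. Each symbol matched 1 of the 40551 Ensembl genes in the count files, and all 9 members were among the 15070 genes that passed the filter on low counts. Total RNA was sequenced from 12 mouse livers, 1 library per liver and 3 livers per genotype, to ask what loss of Mcl1 from hepatocytes does to the liver with and without Sting1. WT livers carried neither deletion. Mcl1 KO mice, which the study calls Mcl1 Δhep, combine floxed Mcl1 with Cre driven by the albumin promoter, so that hepatocytes lose Mcl1, which holds apoptosis back, and the other liver cells keep it. Sting1 KO mice lack Sting1, a sensor adaptor of cytosolic DNA, in the whole body, and the Mcl1 Sting1 DKO mice came from crossing both lines. The WT and Mcl1 KO mice were 2 months old, and animals of both sexes were used. The age of the sequenced Sting1 KO and Mcl1 Sting1 DKO livers was not given in the sources used here. Each replicate is a liver, and the p-values below measure the spread among these few livers.

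Hepatocytes differ along the axis of the liver lobule, from the portal vein, where blood enters, to the central vein, where it leaves. Endothelial cells of the central vein release Wnt ligands and R-spondins, and these activate β-catenin in the nearest hepatocytes. Glul, Axin2, Lgr5, Tbx3, Oat, Slc1a2 and Rhbg lie in a narrow band at the vein, while Cyp2e1 and Cyp1a2 reach further into the lobule. This is a difference of position, and how far each member depends on the Wnt signal was not tested here. Pericentral cells capture the ammonia that escaped the urea cycle upstream and bind it into glutamine, and they hold much of the drug-metabolizing cytochrome P450.

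The promoter bases of 4 members are shown. Cyp2e1 and Cyp1a2 are the members that differed between Mcl1 KO and WT livers, and Glul and Axin2 are examples of members that did not pass the same test. Each run is the 250 bases before the RefSeq start, written 5′ to 3′ on the strand of the gene, and was placed by its unique match in GRCm39. Cyp2e1 lies at chr7:140343482-140343731 on the plus strand, Cyp1a2 at chr9:57590939-57591188 on the minus strand, Glul at chr1:153775425-153775674 on the plus strand and Axin2 at chr11:108810925-108811174 on the plus strand. Capitals mark matches to CTTTGA on either strand, the core that TCF and LEF factors bind with β-catenin, or to the TATA box TATAAA.
Cyp2e1: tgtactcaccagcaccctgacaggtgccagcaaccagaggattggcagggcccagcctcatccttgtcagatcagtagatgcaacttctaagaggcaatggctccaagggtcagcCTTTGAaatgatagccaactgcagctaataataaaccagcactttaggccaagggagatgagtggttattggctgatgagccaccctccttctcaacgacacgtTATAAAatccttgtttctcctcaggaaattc
Cyp1a2: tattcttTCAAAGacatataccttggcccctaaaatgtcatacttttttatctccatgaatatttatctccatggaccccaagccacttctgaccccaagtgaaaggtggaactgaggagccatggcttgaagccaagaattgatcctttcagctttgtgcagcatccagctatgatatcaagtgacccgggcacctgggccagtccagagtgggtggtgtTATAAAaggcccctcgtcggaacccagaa
Glul: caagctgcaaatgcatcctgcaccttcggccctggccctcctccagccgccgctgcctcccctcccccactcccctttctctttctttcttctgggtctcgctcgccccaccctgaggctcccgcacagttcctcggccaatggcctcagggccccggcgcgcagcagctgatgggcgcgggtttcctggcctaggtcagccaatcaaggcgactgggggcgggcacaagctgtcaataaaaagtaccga
Axin2: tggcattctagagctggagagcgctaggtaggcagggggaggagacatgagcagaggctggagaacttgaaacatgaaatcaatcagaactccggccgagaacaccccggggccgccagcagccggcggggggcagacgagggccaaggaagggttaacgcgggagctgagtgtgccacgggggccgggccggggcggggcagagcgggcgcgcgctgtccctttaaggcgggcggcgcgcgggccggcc
RefSeq promoters were at hand for 6 of the 9 members, these 4 with Oat and Slc1a2. The RefSeq starts of Oat and Slc1a2 lay 13390 and 48209 bases downstream of their GENCODE gene starts, so these windows lie inside the annotated genes. Those of the 4 printed genes were within 80 bases of the GENCODE starts. TATAAA on either strand occurred in 2 of the 6, Cyp2e1 (bases 31 to 26 before the start) and Cyp1a2 (bases 29 to 24), and in 12.4% of 32851 mouse promoter windows of the same length. CTTTGA occurred in 3 of the 6, in Cyp2e1 at bases 135 to 130, in Cyp1a2 on the reverse strand at bases 243 to 238 and in Slc1a2, and in 13.8% of all windows. GCGTG, the core bound by the aryl hydrocarbon receptor, CAAAGNCCA for HNF4 and the HNF1 palindrome were searched on both strands and matched none of the 6. These letters describe the windows and say nothing about whether a factor binds there.

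Library depth ran from 28826367 to 45266387 counts on genes. Levels between libraries are given as CPM, the count scaled to library size with TMM factors. Mcl1 was 98.6 ± 7.36 CPM in WT and 29.0 ± 4.58 in Mcl1 KO livers (SD, n = 3 each), and 81.8 and 22.3 CPM on average in Sting1 KO and Mcl1 Sting1 DKO livers. Sting1 was 1.16, 1.73 and 2.70 CPM in the livers labelled Sting1 KO beside 2.11 to 2.53 in WT, so its counts did not separate these labels. In Mcl1 KO livers Sting1 was called higher than in WT (4.75 ± 1.17 CPM, log2 fold change 0.99, adjusted p = 0.0324), and Mcl1 Sting1 DKO livers were below them at 2.25 ± 0.321 CPM without overlap (-1.05, adjusted p = 0.134). The part of the gene that the allele removes was not given in the sources used here. Replicate 3 of Mcl1 KO held 1373 CPM of 6 skeletal muscle genes in sum, against 0.341 to 7.68 in the other libraries. Small structured RNAs took 0.283%, 2.37% and 1.36% of the counts in Mcl1 KO replicates 1, 2 and 3 and 0.172% to 0.897% elsewhere. Y-linked genes passed 100 counts only in WT replicates 2 and 3 and Mcl1 Sting1 DKO replicate 1, so no Mcl1 KO library had them.

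Levels between genes are given as TPM, which also divides by exon length, and on this scale the 9 genes spanned a wide range in WT livers. Cyp2e1, the ethanol- and acetaminophen-oxidizing cytochrome P450, was at 8925 ± 515 TPM (SD, n = 3). Cyp1a2, which oxidizes caffeine and aromatic amines, was at 1409 ± 200 TPM and Glul, the glutamine synthetase that marks the innermost ring of cells, at 1335 ± 237 TPM, and the libraries of this pair overlapped. Oat, the ornithine aminotransferase, followed at 471 ± 66.2 TPM, Slc1a2, a glutamate transporter, at 53.9 ± 10.5, and Rhbg, an ammonium transporter, at 31.0 ± 6.86. Tbx3, a T-box transcription factor, was at 7.63 ± 3.88 TPM and Axin2, the feedback scaffold that holds β-catenin down, at 4.62 ± 2.12, again with overlapping libraries. Lgr5, the R-spondin receptor, was lowest at 1.47 ± 0.439 TPM, from 89 to 272 counts in any library, so its values carry more counting error than those of Cyp2e1 with 35561 to 261493. All other neighbours in this order were separated in WT. In Mcl1 KO livers Cyp1a2 came after Glul and Oat, at 383 TPM against 708 and 520, and neighbours among these genes overlapped.

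**Figure D1:**
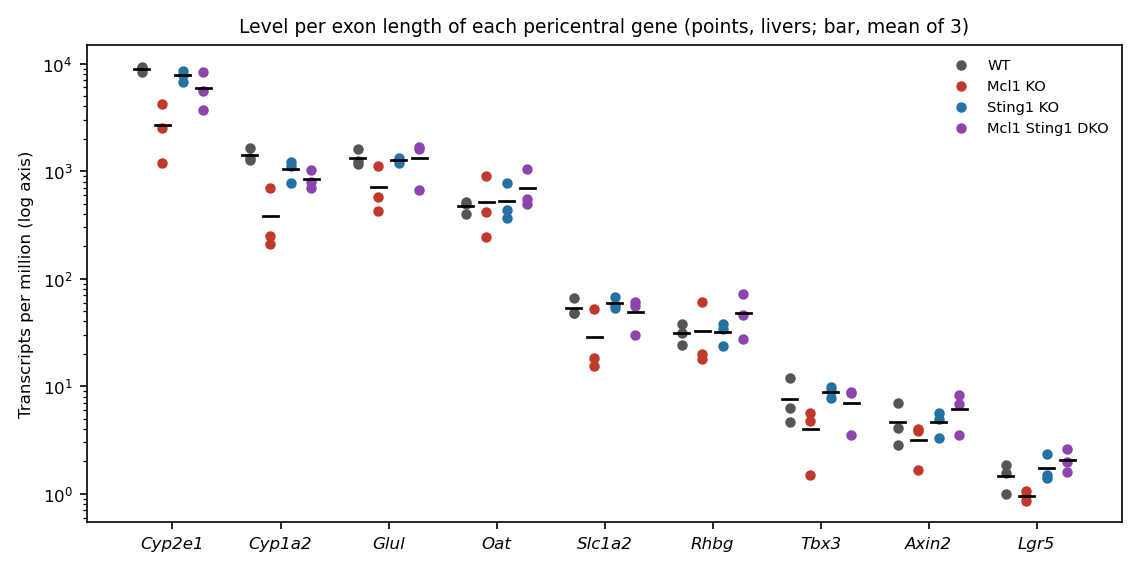
TPM of the 9 pericentral genes on a log axis, with 1 point per liver, colours for the 4 genotypes and a bar at the mean of 3 livers. Cyp2e1 is highest and Lgr5 lowest in every genotype, and the points of Cyp2e1 and Cyp1a2 in Mcl1 KO livers lie below all WT points.

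The first comparison asks how the pericentral genes stood after loss of Mcl1 alone. Cyp2e1 and Cyp1a2 were lower in all Mcl1 KO livers than in any WT liver, with means of 2197 ± 1397 against 7017 ± 372 CPM and 234 ± 180 against 796 ± 74.7 CPM (SD, n = 3), and passed the test. The other members did not pass. In all of them but Lgr5 the 3 Mcl1 KO livers were spread widely, with replicates 1 and 2 mostly low and replicate 3 within or above the WT range. Thus 2 of 9 members were called, both lower, beside 20.2% of all tested genes called in either direction, 9.43% lower and 10.8% higher. The same 2 members had an unadjusted p under 0.05, as did 36.9% of all genes. The share of members called was close to that of all genes. The median log2 fold change was -0.79 over the 9 members and -0.0040 over all tested genes.

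Cyp2e1 was at 6899, 6719 and 7434 CPM in the WT livers and at 1737, 1088 and 3767 CPM in Mcl1 KO replicates 1, 2 and 3. The groups did not overlap, and the highest Mcl1 KO liver was still well below the lowest WT liver. Its log2 fold change was -1.68 (SE 0.40) with an adjusted p of 0.0161 in edgeR's quasi-likelihood test. Cyp1a2 was at 879, 733 and 777 CPM in WT and at 122, 140 and 441 CPM in Mcl1 KO livers. Here too the groups were apart and replicate 3 was the highest of the Mcl1 KO livers, with a log2 fold change of -1.76 (SE 0.41, adjusted p = 0.0139). No overlap between groups was seen for 33.3% of all tested genes.

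Both calls depended on which libraries entered the fit. With Mcl1 KO replicate 2 left out, the log2 fold changes were -1.35 for Cyp2e1 and -1.502 for Cyp1a2, with adjusted p of 0.0528 and 0.0574, and 0 of 9 members were called by edgeR. Of all genes, 1238 of 15304 were then called. Leaving out replicate 3, the library with muscle RNA, gave -2.31 and -2.61 for the same genes and 4 calls, since Glul (-1.41, adjusted p = 0.0177) and Slc1a2 (-1.65, adjusted p = 0.00441) were then called as well. Over all genes, 2556 of 15320 were called in that fit. With small structured RNA entered as a covariate, the values were -1.62 and -2.18 and neither gene was called (adjusted p = 0.22 and 0.141), beside 407 of 15070 genes called over all. With the presence of Y-linked counts as a covariate, both stayed called at -1.99 and -1.96, and Tbx3 was called too (-1.58, adjusted p = 0.0344), beside 1531 of 15070 genes. The same shares stand beside the list counts given below for these fits. Without Mcl1 KO replicate 1, 5232 of 15357 genes were called. Without WT replicates 1, 2 and 3 in turn, the calls were 2678 of 15368, 1233 of 15427 and 1596 of 15463 genes.

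Among the genes of glutamine and ammonia handling, Glul was at 1672, 1314 and 1397 CPM in WT livers and at 547, 550 and 1393 CPM in Mcl1 KO livers. Replicates 1 and 2 lay far below the WT range and replicate 3 inside it, which left a log2 fold change of -0.82 (SE 0.39, adjusted p = 0.149). Slc1a2 had the same shape, with 243, 192 and 191 CPM in WT livers and 61.9, 71.0 and 229 CPM in Mcl1 KO livers. Its log2 fold change was -0.79 with an adjusted p of 0.202. Oat was at 1070, 881 and 1111 CPM in WT livers and at 782, 624 and 2201 CPM in Mcl1 KO livers. Rhbg was at 20.1, 13.9 and 17.9 CPM in WT livers and at 8.69, 13.0 and 37.9 CPM in Mcl1 KO livers. For these last genes replicates 1 and 2 were below all WT livers and replicate 3 was more than 2 times the WT mean. Their log2 fold changes of 0.24 and 0.20 (adjusted p = 0.734 and 0.796) thus averaged opposite deviations, and without replicate 3 they were -0.54 and -0.67. The GENCODE spans of Fgfr2 and Gm38392 overlap Oat and Rhbg on the same strand. Whether this affected the assignment of reads to Oat and Rhbg in these counts was not tested.

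The members Axin2, Lgr5 and Tbx3, Wnt targets or regulators, did not pass the test in Mcl1 KO against WT. Wnt genes outside the 9 members are described below, and some of those were called. Axin2 was at 12.7, 5.61 and 8.06 CPM in WT and at 6.37, 3.76 and 8.67 CPM in Mcl1 KO livers (log2 fold change -0.49, adjusted p = 0.374). Lgr5 was at 4.22, 5.46 and 2.94 CPM in WT livers and at 2.63, 2.88 and 3.07 CPM in Mcl1 KO livers. The 3 Mcl1 KO livers were close together in this gene, and its log2 fold change was -0.55 (SE 0.27, adjusted p = 0.154). Tbx3 was at 26.1, 10.9 and 14.8 CPM in WT and at 9.48, 4.01 and 14.6 CPM in Mcl1 KO livers (log2 fold change -0.88, adjusted p = 0.182). All of these groups overlapped, and the WT livers themselves differed by over 2 times in Axin2 and Tbx3. In both genes the highest WT liver was replicate 1, the WT liver without Y-linked counts, but in Lgr5 it was replicate 2. With the Y-linked covariate in edgeR, Axin2 was at -1.08 (adjusted p = 0.0663) and Lgr5 at -0.73 (adjusted p = 0.165). Tbx3 was called in that fit (-1.58, adjusted p = 0.0344), beside 1531 of 15070 genes.

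**Figure D2:**
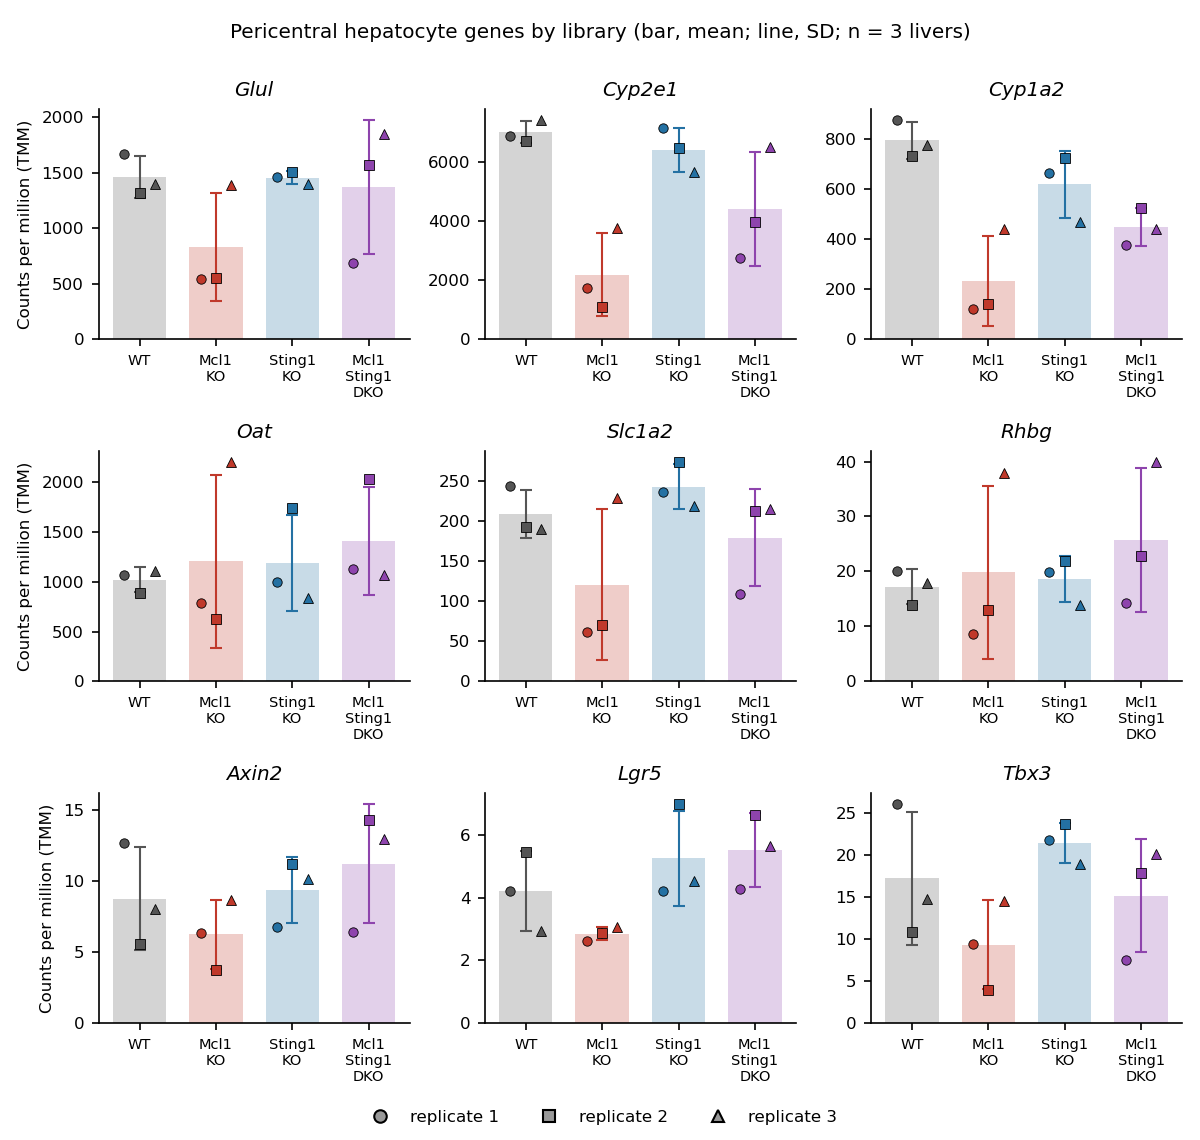
CPM of each pericentral gene in the 12 libraries, by genotype, with bars for the mean and lines for the SD of 3 livers and 1 symbol per replicate number. In Mcl1 KO livers the symbol of replicate 3 lies above the other symbols in every panel, far above them in Glul, Oat, Slc1a2 and Rhbg and by little in Lgr5.

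Counted by library, the spread within Mcl1 KO was plain. Of the 9 members, 8 were below all 3 WT livers in Mcl1 KO replicate 1 and 9 in replicate 2, where 33.9% and 38.8% of all tested genes were, and 2 of 9 in replicate 3, where 37.8% were. The median of the members relative to the WT mean was -0.97, -1.40 and -0.061 on a log2 scale in replicates 1, 2 and 3. A list of 26 other pericentral genes was ordered in the same way, with 18, 22 and 7 below all WT livers and medians of -0.84, -0.83 and 0.13. A list of 20 periportal genes, which mark the hepatocytes at the opposite end of the lobule, had medians of 0.59, 0.48 and -0.031. The 14 markers of all hepatocytes had medians of -0.098, -0.16 and -0.27 in these libraries. Of these markers, 6, 8 and 8 were below all WT livers and 5, 2 and 1 above all of them. In bulk liver, fewer pericentral cells and less RNA of these genes per cell cannot be told apart. Muscle RNA was high in replicate 3 alone. The share of small RNA was 0.283%, 2.37% and 1.36% in replicates 1, 2 and 3. Small RNA as a covariate is described above, and the part of muscle RNA was not tested other than by leaving replicate 3 out.

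**Figure D3:**
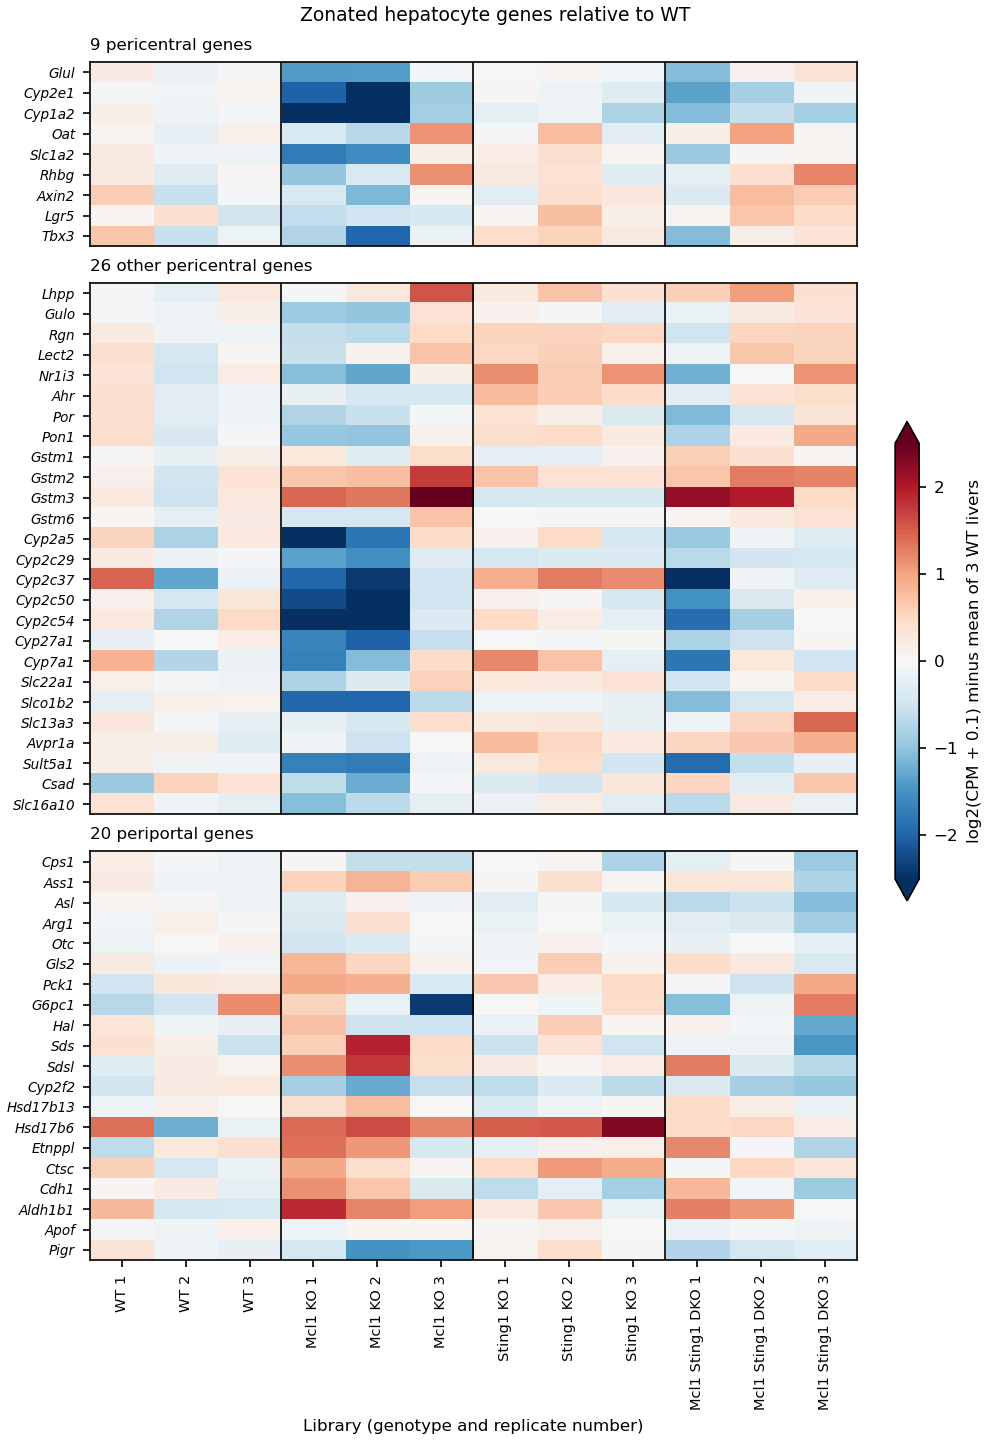
Heat map of log2(CPM + 0.1) minus the mean of the 3 WT livers for 9 pericentral, 26 other pericentral and 20 periportal genes in each library, with blue for lower and red for higher values. Pericentral rows are mostly blue in Mcl1 KO replicates 1 and 2 and in Mcl1 Sting1 DKO replicate 1, and mixed or pale in the other libraries.

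The second comparison was the loss of Mcl1 where Sting1 was deleted as well. None of the 9 members passed the test in Mcl1 Sting1 DKO against Sting1 KO livers with edgeR, at an unadjusted p under 0.05 or with DESeq2, beside 0.803% of all tested genes called by edgeR, 0.126% lower and 0.677% higher, and 11.3% with an unadjusted p under 0.05. Cyp2e1 was at 7141, 6469 and 5654 CPM in the livers labelled Sting1 KO and at 2765, 3968 and 6516 CPM in Mcl1 Sting1 DKO livers. Replicate 1 of the DKO was lowest and replicate 3 lay within the Sting1 KO range, so the groups overlapped (log2 fold change -0.54, 95% interval -1.40 to 0.32, adjusted p = 0.699). Cyp1a2 was at 667, 724 and 468 CPM in Sting1 KO and at 376, 527 and 443 CPM in DKO livers, with a log2 fold change of -0.47 (95% interval -1.34 to 0.41, adjusted p = 0.763). These intervals include both no difference and a fall of more than 2-fold.

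Glul was at 1461, 1509 and 1394 CPM in Sting1 KO livers, the tightest of the 4 genotypes, and at 689, 1572 and 1850 CPM in DKO livers. Replicate 1 of the DKO was thus below all controls and replicates 2 and 3 above them, with a log2 fold change of -0.086. Slc1a2 was at 236, 274 and 219 CPM in Sting1 KO and at 110, 213 and 216 CPM in DKO livers. It was the 1 member whose libraries did not overlap in this comparison, as was true of 22.3% of all tested genes, and its log2 fold change was -0.44 (adjusted p = 0.8). Tbx3 was at 21.8, 23.6 and 18.9 CPM in Sting1 KO and at 7.55, 17.9 and 20.1 CPM in DKO livers (log2 fold change -0.50). Oat, Rhbg, Axin2 and Lgr5 had positive log2 fold changes of 0.24, 0.47, 0.26 and 0.074, none of them called. Oat was at 1001, 1736 and 831 CPM in Sting1 KO and at 1122, 2031 and 1065 CPM in DKO livers. Rhbg was at 19.99, 21.8 and 13.9 CPM in Sting1 KO and at 14.3, 22.9 and 40.0 CPM in DKO livers, with DKO replicate 3 above every other library of the series.

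Mcl1 Sting1 DKO replicate 1 stood apart from the other DKO livers in the same direction as Mcl1 KO replicates 1 and 2. Relative to WT, the median of the 9 members was -0.92 in DKO replicate 1 and 0.15 and 0.32 in replicates 2 and 3, and 5, 2 and 2 members were below all WT livers. Of all tested genes, 30.68%, 29.95% and 29.5% were below all WT livers in DKO replicates 1, 2 and 3. The 26 other pericentral genes had medians of -0.59, 0.21 and 0.34 in these libraries. Periportal genes did not mirror this, with medians of -0.046, -0.047 and -0.54. Replicate 1 was also the only DKO liver with Y-linked counts. With the Y-linked covariate 0 of 9 members were called in this comparison, and Glul was at 0.085. In the Sting1 KO livers the medians of the 9 members were 0.027, 0.40 and -0.060.

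Mcl1 Sting1 DKO livers were next compared directly with Mcl1 KO livers, which also serve in the first comparison. All 9 members had a positive log2 fold change, from 0.23 for Oat to 1.01 for Cyp2e1, with a median of 0.72 over the members and -0.0020 over all tested genes. No member was called by edgeR, as no gene of the 15070 was (0%). At an unadjusted p under 0.05 there were 4 of 9 members, Cyp2e1, Cyp1a2, Axin2 and Lgr5, and 20.6% of all genes. DESeq2 called 1 member, Lgr5 (0.95, adjusted p = 0.0314), and 681 of its 14277 genes. Lgr5 was at 2.63 to 3.07 CPM in Mcl1 KO and at 4.28, 6.63 and 5.64 CPM in DKO livers. These libraries did not overlap, as in 18.2% of all tested genes, and edgeR gave a log2 fold change of 0.94 (SE 0.27, adjusted p = 0.136). Axin2 was at 6.45, 14.3 and 13.0 CPM in DKO livers, higher in replicates 2 and 3 than in any Mcl1 KO liver and within their range in replicate 1 (log2 fold change 0.84, adjusted p = 0.238). With Mcl1 KO replicate 3 left out, edgeR called Cyp1a2, at 1.78 (adjusted p = 0.0325), and 6 of 15320 genes over all. Without Mcl1 KO replicate 1 it called 3108 of 15357 genes, so the absence of calls over all genes depended on that library.

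Sting1 loss alone was compared in the livers labelled Sting1 KO against WT, and both groups also serve as controls above. No member was called by edgeR (0% of all genes), none had an unadjusted p under 0.05, where 5.45% of all genes did, and DESeq2 called none. Log2 fold changes ran from -0.36 for Cyp1a2 to 0.31 for Tbx3. Cyp1a2 was the 1 member without overlap between these groups, as were 12.5% of all genes, since its highest Sting1 KO liver was at 724 CPM and its lowest WT liver at 733 CPM. Its 95% interval ran from -1.23 to 0.51. The libraries of the other 8 members overlapped, and Glul differed by -0.0060.

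The test of whether the Mcl1 effect differed with and without Sting1 loss called no member by edgeR or DESeq2, and edgeR called 0% of all genes. The difference of the log2 fold changes was 1.299 for Cyp1a2 (SE 0.57, adjusted p = 0.336) and 1.14 for Cyp2e1 (SE 0.56, adjusted p = 0.37), and it was 0.0050 for Oat. Cyp1a2 was the 1 member with an unadjusted p under 0.05, as 14.4% of all genes had. Without Mcl1 KO replicate 1, edgeR called 1574 of 15357 genes in this test, while no member was called under any alternative. A call in Mcl1 KO against WT and none in Mcl1 Sting1 DKO against Sting1 KO is therefore not shown to be a difference between the Sting1 backgrounds.

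**Figure D4:**
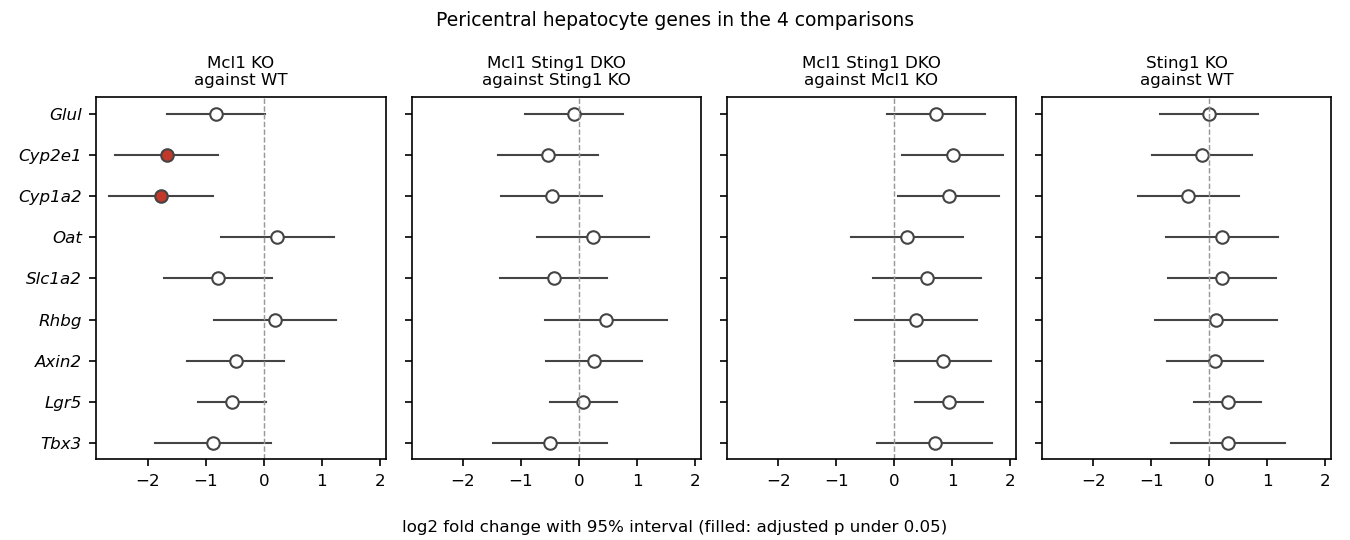
Log2 fold changes of the 9 pericentral genes in 4 comparisons, with lines for the 95% interval and filled points where the adjusted p was under 0.05. The filled points are Cyp2e1 and Cyp1a2 in Mcl1 KO against WT, and all 9 points lie right of 0 in Mcl1 Sting1 DKO against Mcl1 KO.

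Other pericentral genes were read from a list of 26, all of them tested. In Mcl1 KO against WT, 3 were lower and 2 higher by the test, a share near the 20.2% of all genes called, with a median log2 fold change of -0.50. Slco1b2, a hepatic uptake carrier of organic anions, fell from 1398, 1793 and 1744 CPM in WT livers to 420, 416 and 1033 CPM (-1.40, adjusted p = 0.0227). Cyp27a1, a sterol hydroxylase of bile acid synthesis, changed by -1.29 (adjusted p = 0.0191) and Cyp2c29, another cytochrome P450, by -0.97 (adjusted p = 0.0265). The glutathione transferase Gstm3 rose from 56.0, 33.2 and 56.8 CPM to 128, 119 and 345 CPM (2.02, adjusted p = 0.0137), and its relative Gstm2 rose by 1.11 on the log2 scale (adjusted p = 0.0249). Pericentral genes therefore did not all move one way. Leaving out Mcl1 KO replicate 3 gave 8 lower and 1 higher. Leaving out Mcl1 KO replicate 2 or WT replicate 3 gave 0 lower and 2 higher, and with WT replicate 2 left out or with the small RNA covariate none was called by edgeR. No gene of the list was called in the other 3 comparisons by edgeR, and 2 of 26 in Mcl1 Sting1 DKO against Sting1 KO, 6 in Mcl1 Sting1 DKO against Mcl1 KO and 2 in Sting1 KO against WT had an unadjusted p under 0.05, beside 11.3%, 20.6% and 5.45% of all genes.

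Of 13 Wnt ligands, R-spondins and their secretion factors, 10 were tested and 1 was called in Mcl1 KO against WT, beside 20.2% of all genes. Wls, which carries Wnt proteins to the cell surface, was called in Mcl1 KO against WT at 0.43 (adjusted p = 0.033), with 11.3, 13.0 and 14.3 CPM in Mcl1 KO and 8.98 to 10.4 CPM in WT livers. That call was made in 9 of 21 alternatives, and it was lost without Mcl1 KO replicate 2 or 3 and without WT replicate 2 or 3. The main central vein signals did not pass, with log2 fold changes of 0.12 for Wnt2, -0.47 for Wnt9b and -0.070 for Rspo3.

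All 26 receptors and transducers of Wnt signals were tested, and 5 were lower and 1 higher in Mcl1 KO livers, a share near the 20.2% of all genes. Lgr4, the R-spondin receptor that hepatocytes express along the whole lobule, was at 113, 134 and 122 CPM in WT livers and at 59.6, 43.4 and 58.7 CPM in Mcl1 KO livers. Its 3 Mcl1 KO values lay close together and far below WT, without the high replicate 3 seen in Glul. The log2 fold change was -1.19 (SE 0.20, adjusted p = 0.00333), and it was called in 20 of 21 alternatives, all but the small RNA covariate (-0.98, adjusted p = 0.0911). In DKO livers Lgr4 was at 95.9, 87.6 and 63.5 CPM and in Sting1 KO livers at 89.6, 115 and 79.0 CPM, with a log2 fold change of -0.20 that was not called. Among the Frizzled receptors, Fzd8 fell by 1.71, Fzd4 by 0.96 and Fzd5 by 0.55 on the log2 scale in Mcl1 KO livers (adjusted p = 0.0323, 0.0209 and 0.0434). They were called in 13, 18 and 7 of 21 alternatives. In DKO livers Fzd8 was at 8.32, 20.5 and 6.29 CPM and in Sting1 KO livers at 38.3, 46.2 and 13.7 CPM. Fzd4 was at 17.6, 28.8 and 21.15 CPM against 27.0, 42.2 and 22.75 CPM, and Fzd5 at 11.5, 10.8 and 8.89 CPM against 7.83, 10.2 and 6.635 CPM. No gene of this list was called by edgeR in DKO against Sting1 KO. The transcription factor Tcf7 rose by 0.97 (adjusted p = 0.0168). With Mcl1 KO replicate 2 left out, edgeR called only Lgr4 and Tcf7 of this list, while leaving out Mcl1 KO replicate 1 gave 11 lower and 1 higher. Leaving out a WT liver gave 2 lower and 1 higher (replicates 1 and 3) or 1 lower and 0 higher (replicate 2). Ctnnb1, which encodes β-catenin, was at -0.23 (adjusted p = 0.239).

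Among 18 feedback inhibitors of the pathway, 10 were tested and 2 were called in Mcl1 KO livers, beside 20.2% of all genes. Znrf3, a ubiquitin ligase that removes Frizzled receptors and is itself a Wnt target, was at 18.8, 14.6 and 15.4 CPM in WT livers and at 11.03, 7.86 and 8.48 CPM in Mcl1 KO livers (-0.83, adjusted p = 0.012). In DKO livers it was at 12.3, 18.3 and 18.3 CPM, with replicate 1 lowest. Dkk3, a secreted Dickkopf protein, rose by 1.35 (adjusted p = 0.0136). Rnf43, a ligase of the same kind as Znrf3, was at -0.89 and the targets Nkd1 and Notum at -0.15 and -0.038, none of them called. Without Mcl1 KO replicate 2 neither Znrf3 (-0.73, adjusted p = 0.0544) nor Dkk3 (1.05, adjusted p = 0.0609) passed. Leaving out Mcl1 KO replicate 1 or WT replicate 1 gave 4 calls in this list, and leaving out WT replicate 2 or 3 gave 1.

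Glutamine, glutamate and ornithine genes, the chemical neighbours of Glul and Oat, gave 3 higher and 1 lower of 18 tested, a share near the 20.2% of all genes. The count was 4 higher and 3 lower without Mcl1 KO replicate 1 and with DESeq2. Slc1a4, a carrier of neutral amino acids, was at 4.75, 5.16 and 3.90 CPM in WT livers and at 36.7, 17.7 and 13.4 CPM in Mcl1 KO livers (2.28, adjusted p = 0.00197). It was also called in Mcl1 Sting1 DKO against Sting1 KO livers, at 26.1, 21.3 and 25.0 against 6.72, 7.51 and 4.37 CPM (1.95, adjusted p = 0.0293). Aldh18a1, an enzyme on the way from glutamate to proline and ornithine, rose by 1.64 in Mcl1 KO against WT (adjusted p = 0.0018), and Prodh, which breaks proline down, fell by 1.27 on the log2 scale (adjusted p = 0.0392). In Mcl1 KO against WT, Slc1a4 and Aldh18a1 were called in 21 of 21 alternatives and Prodh in 10. In DKO against Sting1 KO, Slc1a4 was called in 15 of 21.

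Cyp1a2 is a target of the aryl hydrocarbon receptor, so the 7 genes of that list were read beside it. Nqo1, a quinone reductase that other stress pathways also induce, was the 1 gene called, at 27.7, 34.9 and 38.0 CPM in Mcl1 KO livers against 13.9, 5.37 and 7.03 CPM in WT (1.93, adjusted p = 0.00392). Thus edgeR called 1 of 7 genes, beside 20.2% of all genes, and 4 had an unadjusted p under 0.05, beside 36.9%. Log2 fold changes ran from -1.27 to 1.93, with 3 positive and 4 negative. DESeq2 called 1 gene higher and 1 lower. Nqo1 thus rose where Cyp1a2 fell, while the 4 genes with negative values went the same way as Cyp1a2. Among these 4 was the receptor gene Ahr at -0.37 (adjusted p = 0.22).

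Periportal genes gave 1 higher and 2 lower of 20 tested in Mcl1 KO livers, a share below the 20.2% of all genes, with a median log2 fold change of 0.44. Aldh1b1, a mitochondrial aldehyde dehydrogenase, rose by 1.304 (adjusted p = 0.0413). Pigr, the receptor that moves IgA into bile, fell by 1.06 (adjusted p = 0.0237), and Cyp2f2, a periportal cytochrome P450, fell by 0.89 (adjusted p = 0.0259). Without Mcl1 KO replicate 2 no periportal gene was called by edgeR, the same held without WT replicate 2, and 1 was called without WT replicate 3.

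**Figure D5:**
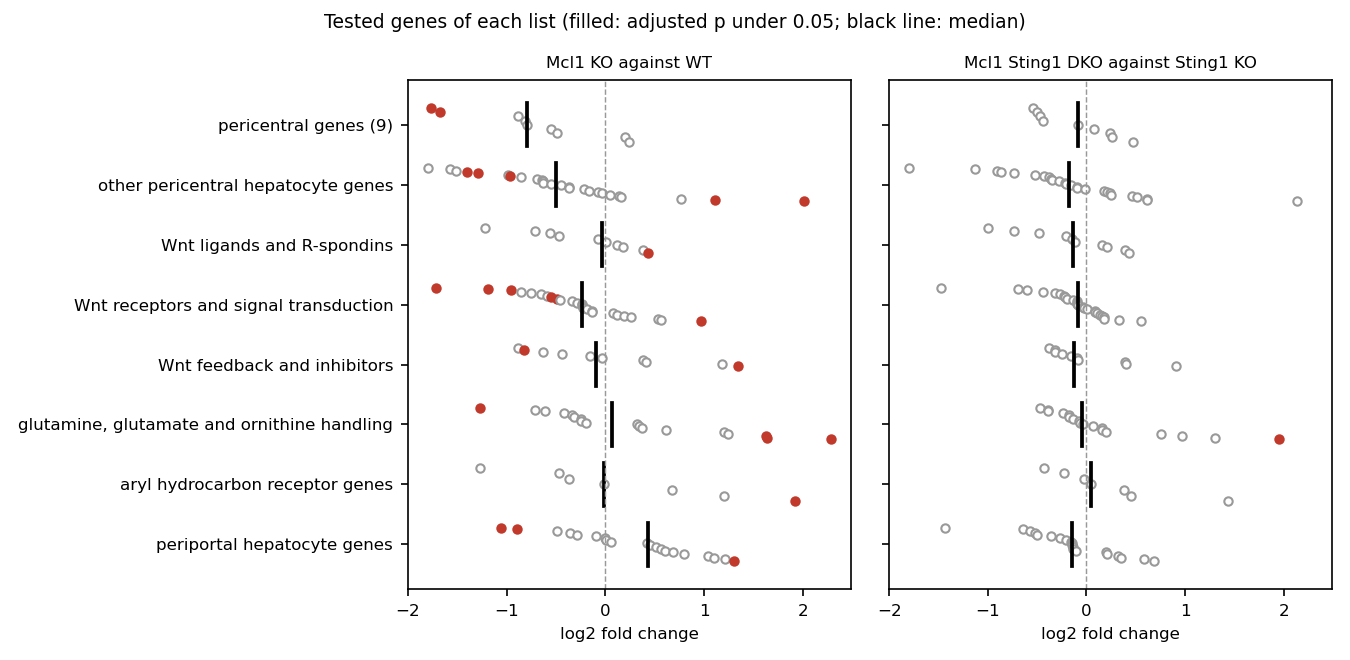
Log2 fold changes of all tested genes of 8 lists, 1 point per gene, in Mcl1 KO against WT and in Mcl1 Sting1 DKO against Sting1 KO, with black lines at the list medians and filled points where the adjusted p was under 0.05. The pericentral median lies at -0.79 on the left and at -0.086 on the right, and the only filled point on the right is Slc1a4.

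Markers of other cells moved beside these genes in Mcl1 KO against WT. Of the proliferation genes, 6 of 6 rose, beside 10.8% of all genes called higher, with a summed level of 58.3 to 160 CPM in Mcl1 KO and 14.7 to 15.3 CPM in WT livers. Macrophage markers rose in 3 of 7 (630 to 747 against 400 to 618 CPM), stellate cell markers in 3 of 6 (565 to 603 against 349 to 507 CPM) and neutrophil markers in 3 of 3 tested (6.599 to 18.8 against 1.79 to 2.74 CPM). The same 10.8% of all genes called higher stands beside these counts and that of the lymphocyte markers below. With 1 library left out, the counts were 1 to 3 for macrophage markers (1 without Mcl1 KO replicate 2, WT replicate 1 or WT replicate 2), 1 to 4 for stellate cell markers (1 without WT replicate 2 or 3) and 1 to 3 for neutrophil markers (1 without Mcl1 KO replicate 2 or WT replicate 3). Adgre1 of the macrophage list was called in 5 of 21 alternatives and Cd68 in 20. Ly6g, a defining neutrophil gene, was at 0 in 9 of 12 libraries. Desmin (Des) of the stellate list, which muscle also expresses, was at 2.51 with all libraries and at 0.75 without Mcl1 KO replicate 3. Of the lymphocyte markers, 1 of 6 tested rose, Cd8a, a call lost without Mcl1 KO replicate 2 or WT replicate 2. None of the 8 endothelial or 6 tested cholangiocyte markers was called by edgeR, beside 20.2% of all genes. At an unadjusted p under 0.05 there were 1 and 0 of them, beside 36.9% of all genes. Of 14 hepatocyte markers, only Apoa2 was called, and it was lower, beside 9.43% of all genes called lower. The sum of these markers was 149700 to 195400 CPM in Mcl1 KO and 145200 to 200500 CPM in WT livers. In Mcl1 Sting1 DKO against Sting1 KO livers, 4 of 6 proliferation genes were called higher (Top2a, Cdk1, Ccnb1 and Mcm5), beside 0.677% of all genes, with sums of 52.9 to 178 against 18.2 to 25.5 CPM. That count was 0 to 6 with 1 library left out, and 0 without any 1 Sting1 KO liver or without Mcl1 Sting1 DKO replicate 1 or 2. No other marker of these lists was called in that comparison. The part of these cells in the pericentral values was not tested.

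Genes with a pattern like that of Glul or Axin2 were sought by the correlation of log2 CPM over the 12 libraries among 12550 genes, as a description of libraries that share genotype and depth. For Glul the highest Pearson r were 0.97 for Mir8114, 0.96 for Slc25a21 and Cyp2c50, 0.95 for Gm38393 and 0.94 for Sntg2. Mir8114 lies at chr1:153775672-153775782 across the start of Glul on the same strand and may share its reads. For Axin2 they were 0.90 for 4930523C07Rik and Prxl2a, 0.89 for Nkd1 and Tpbgl and 0.88 for Calcrl. Cyp2c50 belongs to the list of other pericentral genes and Nkd1 to the list of Wnt feedback genes.

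In GRCm39, Glul (ENSMUSG00000026473) is at chr1:153775690-153785469 and overlaps Teddm2 on the opposite strand. Cyp2e1 (ENSMUSG00000025479) at chr7:140343652-140355167 and Cyp1a2 (ENSMUSG00000032310) at chr9:57584196-57590986 overlap no other annotated gene. Oat (ENSMUSG00000030934) is at chr7:132159153-132191517, and Rhbg (ENSMUSG00000104445) is at chr3:88150181-88162043. Slc1a2 (ENSMUSG00000005089) at chr2:102488574-102621129, Axin2 (ENSMUSG00000000142) at chr11:108811169-108841609, Lgr5 (ENSMUSG00000020140) at chr10:115286216-115423685 and Tbx3 (ENSMUSG00000018604) at chr5:119806298-119822797 each overlap a gene on the opposite strand. Whether the counting used strand was not given in the sources used here, so reads of these antisense genes cannot be told apart from those of the members.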

How the data were processed

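The authors extracted total RNA from mouse livers, sequenced it on an Illumina NovaSeq and deposited a table of unnormalized read counts by Ensembl gene for each liver. The submitters' processing notes name STAR, featureCounts and GRCm39. Versions, annotation and strand setting were not given in the sources used here, and the labels and the methods name different RNeasy kits. Genotype and replicate came from the labels, 3 livers each. Depth ran from 28826367 to 45266387 counts. Chi-square over degrees of freedom between libraries of 1 genotype was 40.1 to 290, so none was a copy.

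CPM with TMM factors, log2 fold changes (prior count of 2), SE and p-values came from edgeR 4.0.16 (quasi-likelihood test over all 12 libraries without covariates, low counts removed with filterByExpr) in R 4.3.3, with Benjamini-Hochberg adjustment over 15070 tested genes and a threshold of 0.05. DESeq2 1.42.0 was an alternative, and both were tested on simulated data. CPM means throughout the TMM-scaled value. TPM used summed exon lengths of GENCODE vM39, which lacks 1018 of the identifiers (up to 0.101% of the counts in any library). Values relative to WT used log2(CPM + 0.1). Motifs were searched in 250 bases before RefSeq starts, from a RefSeq table of GRCm38.p6 whose members' bases were then located in GRCm39. Members, lists and tests were chosen with earlier results of these data known. Named genes were the 9 members, Mcl1, Sting1, up to 5 called genes with the largest change per list, and the 5 genes most correlated with Glul and with Axin2 at a mean of at least 1 CPM. A called gene that the rule would name is not reported here. Genes named beyond this (such as Wnt2, Wnt9b, Rspo3, Ctnnb1, Rnf43, Nkd1, Notum, Ahr and the cell markers) were chosen after their values were seen. Alternatives were other scalings, no filter, only the compared groups, covariates, the replicate number as a block, and each library left out in turn. The calls of list genes under these alternatives were added after the data were seen.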

Additional observations from a re-analysis of the deposited data

How the results depend on the processing

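With 3 livers per genotype, a single library could make or end a call. In Mcl1 KO against WT, 2 pericentral genes were called in the fit over all libraries, 0 with only the groups compared (Cyp2e1 adjusted p = 0.0545, Cyp1a2 0.0636), 0 with the small RNA covariate, and 0 to 4 when 1 library was left out, with 0 without Mcl1 KO replicate 2 and 4 without Mcl1 KO replicate 3. Both genes were lower in 21 of 21 alternatives and called in 18. In Mcl1 Sting1 DKO against Mcl1 KO, 0 were called, 1 by DESeq2 and 0 to 1 when 1 library was left out. Over all genes, edgeR called 3108 of 15357 there without Mcl1 KO replicate 1. The counts of members in the other comparisons were 0 under every alternative run. Upper-quartile factors shifted the median log2 fold change of all genes in Mcl1 KO against WT by 0.14 and called 2222 higher among 3029, beside 1629 among 3050 with TMM, while Cyp2e1 and Cyp1a2 were at -1.52 and -1.60. Genes called over the whole table in that comparison ranged from 407 with the small RNA covariate to 5232 without Mcl1 KO replicate 1. They were 1178 of 14454 with only the groups compared, 1238 of 15304 without Mcl1 KO replicate 2 and 2556 of 15320 without Mcl1 KO replicate 3.

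Values near 0 changed sign. Rhbg in Mcl1 KO against WT was -0.011 with the replicate block, -0.29 with the Y-linked covariate, -0.38 with the small RNA covariate and -0.67 to 0.56 when 1 library was left out, and Oat there was -0.54 to 0.55. In Mcl1 Sting1 DKO against Sting1 KO, Glul was 0.061 with scaling to hepatocyte markers, 0.085 with the Y-linked covariate and -0.34 to 0.23 without 1 library, and without 1 library Oat was -0.12 to 0.62 and Lgr5 -0.079 to 0.33. In Mcl1 Sting1 DKO against Mcl1 KO, leaving out 1 library gave -0.13 to 1.001 for Oat and -0.092 to 1.24 for Rhbg. Tbx3 in Sting1 KO against WT was -0.38 with the Y-linked covariate. The difference of Mcl1 effects for Oat was -0.0060 with relative log expression factors, -0.11 with upper-quartile factors and -0.35 to 0.78 without 1 library. The cause of these changes was not tested. Mylpf of the muscle list, far from 0 at 5.48 and called in Mcl1 KO against WT (edgeR, adjusted p = 0.0325), was -0.26 to 6.05 without 1 library and negative without Mcl1 KO replicate 3, the library with muscle RNA.

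Same-numbered livers did not pair, since 3 of 18 pairs had a correlation of deviations over 0.1 (-0.55 to 0.27). With the replicate number as a block, 2 pericentral genes were called in Mcl1 KO against WT, Cyp2e1 at -1.81 and Cyp1a2 at -1.88, and 0 in each other comparison. Of 45 calls of list genes, 44 stood with DESeq2, 39 with the block, 23 with the Y-linked covariate, 12 with the small RNA covariate and 19 without WT replicate 2. Counting error is larger for Lgr5, Axin2 and Tbx3, with as few as 89, 123 and 131 counts, than for the other members.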
